A study of Rattus norvegicus with 2 samples.

Results

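Splicing regulators and neuronal RNA-binding proteins were taken by name: every non-control probe whose gene name on the array began with Srpk, Srsf, Sfrs, Hnrnp, Hnrp, Rbfox, Celf, Nova, Elavl, Mbnl, Ptbp or Khdrbs. This gave 54 genes, measured by 71 probes in 98 spots, of 17573 genes on the array with a current RefSeq symbol. All 54 genes had a probe well above background on both arrays, as did 14176 of the 17573. Total RNA came from the hypothalamic paraventricular nucleus, which releases hormones and steers the autonomic nervous system, of male Sprague Dawley rats aged 12 weeks. The control array was hybridised with RNA from rats born to mothers given vehicle, and the other array with RNA from rats whose mothers had received dexamethasone, a synthetic glucocorticoid, at 200 µg/kg in the third trimester. How many animals contributed to an array is not stated in the labels. Each group had a single array (n = 1), so the treatment could not be tested, animal-to-animal spread is unknown, and every difference below is between these 2 arrays, without a replicate check.

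Splicing removes introns from a pre-mRNA and joins its exons, and the proteins described here decide which exons are kept. SR proteins (the Srsf genes) bind exons and favour their inclusion, and they become active when kinases of the Srpk and Clk families phosphorylate their serine-arginine stretches. Heterogeneous nuclear ribonucleoproteins (the Hnrnp genes), among them the polypyrimidine tract-binding proteins (Ptbp), often act against inclusion. The Rbfox, Nova, Celf, Mbnl, Khdrbs and Elavl families add tissue-specific choices, and several of their members are made mainly in neurons, where they set neuronal forms of ion channels, synaptic proteins and adhesion molecules.

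The 60-base probes of the 3 SR protein kinases, of the 3 SR proteins furthest below 0, of Rbfox1 and of the 2 lowest Elavl genes are shown by their first 30 bases to show what was hybridised; each has its rn4 position. All letters are in lower case because no stretch is singled out.
Srpk3 probe, chrX:159701230-159701289, plus strand: agcctatttgtgatccttctagagggtcct
Srpk1 probe, chr20:6829694-6829753, minus strand: ttcacagatttcctgctgcccatgttggag
Srpk2 probe, chr4:7039581-7039640, plus strand: aattaactgtagaatccaggacgcagacat
Srsf5 probe, chr6:104732910-104732969, plus strand: cttcttgcccattaacagctgtagatagac
Srsf6 probe, chr3:153798966-153799025, plus strand: tctacagaagtgtaaaacaaggcaagcctc
Srsf7 probe, chr6:3098739-3099576, minus strand: taaaagaagtcgttccccatcaggaagtcc
Rbfox1 probe, chr10:8216147-8216206, minus strand: ctttcttcattgcaggctagtatataccga
Elavl2 probe, chr5:111179274-111179333, minus strand: gtgctgaagtgaacaagcgagttttcatgc
Elavl4 probe, chr5:131672015-131672074, minus strand: gcctaagtattaaaacattggattatcctg
The Srsf7 probe spans 838 bases of the genome, and in all 7 member probes of 6 genes span 144 bases or more; these are called junction probes below. The Khdrbs1 probe spans 62 bases and is not counted among them. Whether the other probes lie in coding exons or untranslated regions was not analysed here. GC content of the 71 probes ran from 35% to 61.7% with a median of 41.7%, against 45% for all probes. Among the probes that stand for the genes, the longest run of bases shared within a family was 6 in Srpk, 9 in Srsf, 10 in Hnrnp and 12 in Mbnl. A run of 20 bases or more in common with a probe of another name was found in 6 of the 71 probes, all of them Hnrnp probes (of Hnrnpa1, Hnrnpa3, Hnrnpl and Hnrnpm). The runs were 21 to 42 bases long, and the probes that stand for Hnrnpa1 and Hnrnpl were among the 6. Whether RNA of other transcripts adds to the signal of these probes was not tested.

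Signals are the scanner software's background-subtracted intensities, and differences are log2 values, dexamethasone minus control, after each array was scaled to its 75th percentile (1404 in the control array, 1480 in the dexamethasone array). Signals are quoted before scaling, so equal signals give a difference slightly below 0. Probes well above background numbered 24141 (79.5%) and 23747 (78.2%) of 30367. Repeated spots of a probe gave an SD of the difference with a median of 0.042 over 1390 probes. The scanner software's own error of about 10% per spot comes to 0.20 on the log2 difference when the errors of both arrays are combined as SDs. It is used below as a yardstick and not as a test, so a difference beyond 0.20 is not thereby shown to be real. The 2 arrays occupied different positions of 1 slide, and an effect of position cannot be told apart from the group. Of 7 markers of the nucleus, 6 were measured on both arrays, 2 higher and 4 lower, with summed scaled signals of 4.33 in control and 2.11 in dexamethasone. In the same order, Avp read 3464 and 970, Oxt 1455 and 587, and Crh 230 and 636. Trh read 622 and 554, Pou3f2 290 and 361, and Sim1, dim on both arrays, 14.1 and 12.0. Otp passed the background limit only after dexamethasone. Markers of other regions differed between the arrays: 6 of 6 measured cortical and hippocampal markers were at least 2-fold higher after dexamethasone (summed scaled signal 0.543 and 10.7), all 6 thalamic markers were lower (83.6 and 44.5), and all 6 striatal markers were higher (2.99 and 6.73). General neuron markers summed to 90.9 and 91.0, with 6 of 7 higher and bright Tubb3 lower (-0.35). Astrocyte markers summed to 64.8 and 80.4 and oligodendrocyte markers to 302 and 318, each with 5 of 6 higher. Sums were 24.8 and 26.3 for microglia, 10.4 and 9.47 for endothelium, and 260 and 248 for choroid plexus. Blood markers summed to 18.1 and 51.2. The part of these markers in the results below was not tested, and in whole tissue fewer cells of a type and less RNA per cell cannot be told apart.

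The differences of the splicing regulators were centred near 0, like those of all genes. Of the 54 genes, 29 were higher and 25 lower after prenatal dexamethasone, and the median difference was 0.012, against 0.0087 over all 14176 genes, of which 48.7% were lower. No member was 2-fold higher, where 3.37% of all genes were, and 1 was 2-fold lower (Srpk3), where 2.38% of all genes were. At 1.5-fold, 1 member was higher (Rbfox1) and 2 were lower (Srpk3 and Srsf5), against 7.29% and 7.53% of all genes. The interquartile range of the members was -0.21 to 0.12, and that of all genes was -0.20 to 0.20. Many members are bright, and among the 43 members at or above the median signal of all genes the median difference was 0.0086, against 0.024 over the 7088 genes at that signal.

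**Figure D1:**
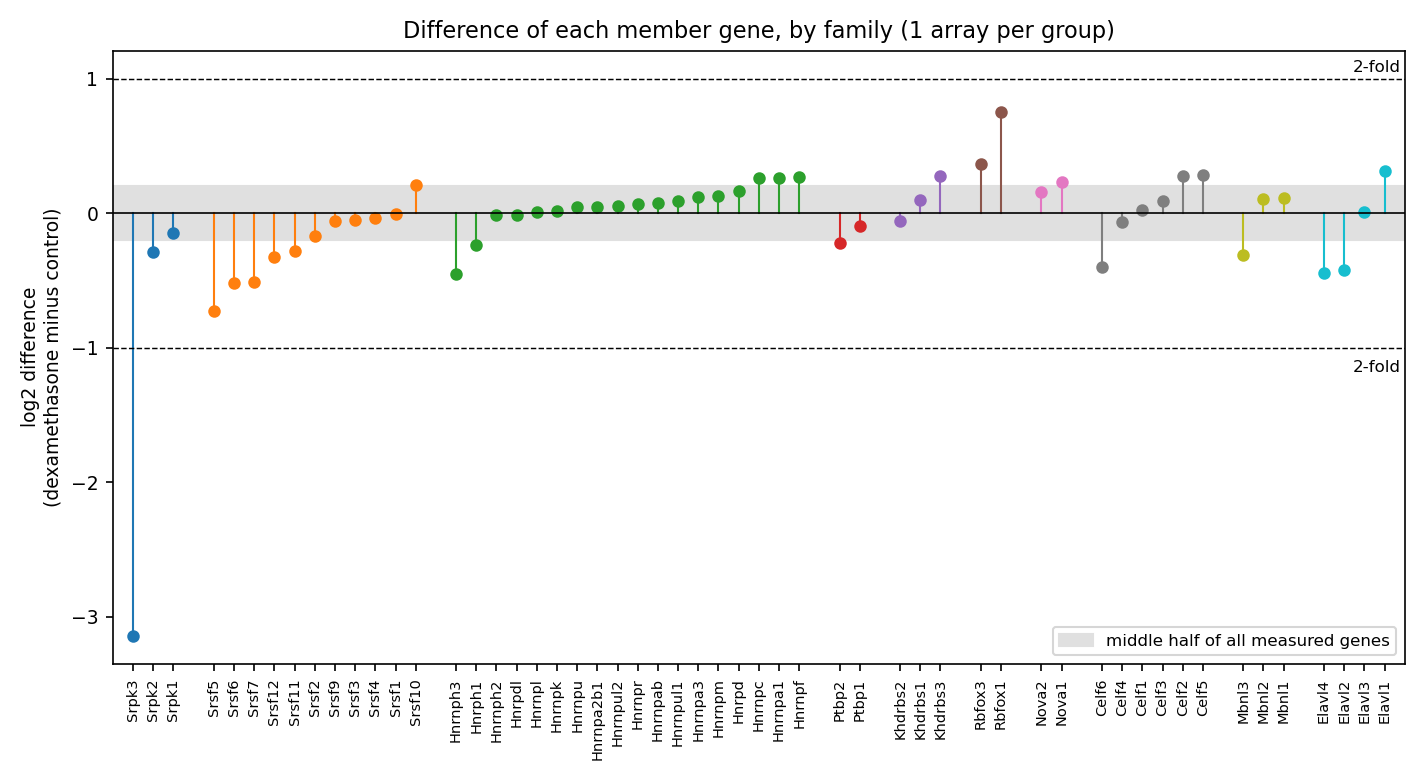
Log2 difference (dexamethasone minus control) of each of the 54 genes, 1 point per gene, grouped and coloured by family; the grey band is the interquartile range of all 14176 measured genes and dashed lines mark 2-fold. Srpk3 stands alone below the lower line, 10 of 11 Srsf genes are below 0, and Rbfox1 is the highest point.

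**Figure D2:**
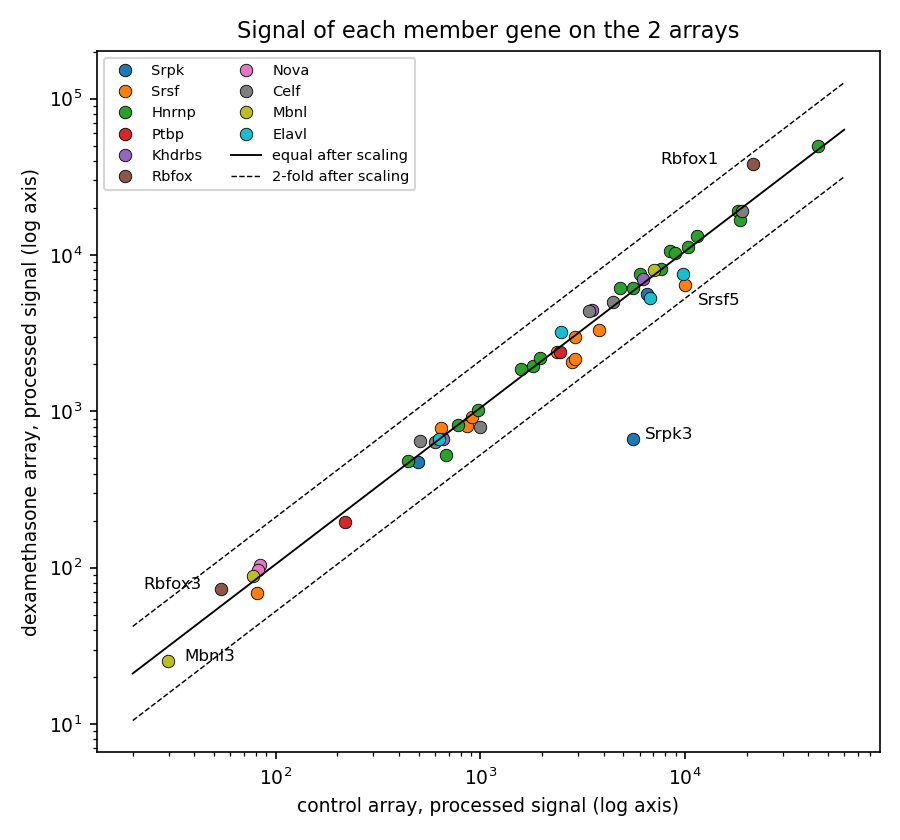
Processed signal of each of the 54 genes on the control array (x, log axis) and the dexamethasone array (y, log axis), coloured by family; the solid line marks equal values after scaling and the dashed lines 2-fold. Members lie along the solid line except Srpk3, at 5560 on the control and 663 on the dexamethasone array.

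The SR protein kinases held the single large difference. Srpk3, on the X chromosome, encodes a kinase best known from striated muscle, where it acts downstream of the transcription factor MEF2. Its signal was 5560 on the control array and 663 on the dexamethasone array, a difference of -3.14, or 8.84-fold lower. Among all 14176 genes this was the 3rd lowest difference, and among the 7088 genes at or above the median signal it was the lowest. The value rests on 1 probe and 1 spot per array. That spot carried no outlier mark, and its pixels were even: the raw mean was 6161 with a pixel SD of 513 over 66 pixels in the control, and 803.7 with 81.6 over 63 pixels after dexamethasone, over local backgrounds of 73 and 64. Under the 10 processing alternatives the difference stayed between -3.17 and -3.01. Some of these could not move the value of a gene with 1 bright probe. The Srpk3 difference was -3.14 without the filter on dim probes, among genes at or above the median signal, and with probes averaged.

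Both other kinases were lower by far less. Srpk2, which is abundant in brain, had 10 spots on each array, with a mean signal of 6502 ± 220 (SD over spots) in the control and 5605 ± 205 after dexamethasone. All 10 spots were lower on the dexamethasone array, by -0.25 to -0.37, for a difference of -0.29 with a spot SD of 0.036. Srpk1, the broadly expressed member, read 494 and 471, a difference of -0.14, which is within the scanner's error of 0.20. Spots of 1 array are technical repeats, so the agreement of the Srpk2 spots covers the measurement and not the animals.

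Among measured genes with a RefSeq symbol beside Srpk3 on the X chromosome, none was as far below 0. Probes without such a symbol were not looked at here. Within 200 kb on rn4, 18 probes of 16 such genes were measured on both arrays. Their median difference was -0.05, with a range from -1.56 to 3.06. The nearest of these, Idh3g, a subunit of the citric acid cycle enzyme isocitrate dehydrogenase, lies 154 bases from the Srpk3 probe and differed by -0.09. Plxnb3, a semaphorin receptor on the other side, differed by -0.63. Differences in this window thus ran both ways.

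Since Srpk3 is known from muscle, its difference is set beside the striated muscle markers. Of 8 markers 7 were measured on both arrays, 4 higher and 3 lower, and Myl2 was not well above background on either. Casq2, which stores calcium in the sarcoplasmic reticulum, read 2792 in the control and 715 after dexamethasone (-2.04). Ckm, muscle creatine kinase, read 66.4 and 21.6 (-1.69). The other 5 differed by less: Acta1 by 0.65, Tnnt2 by 0.72, Des by 0.13, Actc1 by 0.07 and Myh7 by -0.07. The summed scaled signal of the muscle list, Casq2 and Ckm included, was 3.41 and 2.07, and the part of such RNA in the Srpk3 value was not tested. Medians of the regional markers were -0.97 for thalamus, -0.28 for the nucleus itself, 0.68 for striatum and 3.48 for cortex and hippocampus. Their part in the Srpk3 value was not tested either.

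SR proteins, the substrates of these kinases, were lower in 10 of 11 genes, with a median of -0.17, where 48.7% of all genes were lower. The count was 9 or 10 of 11 under 9 alternatives and 9 of the 10 genes left when dim genes were dropped, and relative to the median of all genes the family median lay between -0.20 and -0.14. Srsf5, known as a gene that insulin induces in liver cells, had the largest difference, from 10060 to 6394, or -0.73 (1.66-fold lower). Srsf6, a regulator of tau exon inclusion, went from 2811 in the control to 2070 (-0.52), and Srsf7 from 2911 to 2155 (-0.51). These 3 exceed the scanner's error of 0.20, and each rests on 1 spot per array.

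Differences were smaller in the rest of the family. Srsf11 read 3818 and 3305 (-0.28), and its second probe, across an exon junction, gave -0.29. Srsf12 was dim, at 81.3 and 68.5 (-0.32), and Srsf2 read 863 and 808 (-0.17). Close to 0 were Srsf9 (-0.06), Srsf3 (-0.05), Srsf4 (-0.04) and Srsf1 (-0.0073). The sign of Srsf1 turned when arrays were scaled by the median of detected probes, and its dimmer second probe gave -0.26. Repeated spots bear out how small 2 of these are. Srsf3 had a second probe with 10 spots, of which 8 were lower, at a difference of -0.03 with a spot SD of 0.033. Srsf4 had 6 spots usable on both arrays, of which 4 were lower, with differences from -0.06 to 0.07 (lowest and highest spot) and a spot SD of 0.046. Its reported -0.04 sets all 10 control spots against the 6 unmarked dexamethasone spots, and was -0.02 with outlier spots kept. The single higher member was Srsf10, a splicing repressor when dephosphorylated, at 644 and 783 (0.21), measured by a junction probe.

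Heterogeneous nuclear ribonucleoproteins leaned slightly the other way. Of 18 genes, 14 were higher and 4 lower with a median of 0.06, where 48.7% of all genes were lower and their median was 0.0087. The lean was small enough to depend on scaling: 2 were lower when arrays were scaled by the median of detected probes and 8 were lower after cyclic loess. The 3 highest were Hnrnpf at 4837 and 6152 (0.27), Hnrnpa1 at 8417 and 10630 (0.26) and Hnrnpc at 6006 and 7570 (0.26). Hnrnpf and its relatives bind G-rich runs, Hnrnpa1 opposes SR proteins at many exons, and Hnrnpc binds uridine tracts in nascent transcripts. Hnrnpa1 has a second probe, which gave 0.28.

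At the low end was Hnrnph3, with 682 in the control and 525 after dexamethasone (-0.45). Its relative Hnrph1, now named Hnrnph1, read 18580 and 16640 (-0.23), with -0.19 on a second probe. Hnrnph2 was at -0.02 and Hnrnpf at 0.27, so the genes of the H and F group, all binders of G-rich RNA, lay on both sides of 0. The remaining member below 0 was Hnrpdl at -0.01, and the other 11 genes were between 0.0078 (Hnrnpl) and 0.16 (Hnrpd). Signs turned under some scaling for 6 of the 18: Hnrnpab, Hnrnph2, Hnrnpk, Hnrnpl, Hnrnpu and Hnrpdl.

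Hnrnpa3 was the exception among genes with several probes. Its bright probes on the transcript NM_001111294 gave 0.12 (signal 11480 and 13140) and 0.20 (9201 and 11170). Its dim junction probes on the transcript NM_001111295 gave -0.05 (30.6 and 31.0) and -0.17 (89.7 and 84.3). These dim values and the 0.12 are within the scanner's error. The probe that gave 0.20 shares a run of 42 bases with a probe of another name, and the probe that gave -0.17 a run of 21. Of the 14 member genes with several measured probes, 13 had the same sign on all of them, with a median spread of 0.071 and a largest spread of 0.37. Over all 2652 genes with several measured probes, 1967 had the same sign and the median spread was 0.14.

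**Figure D3:**
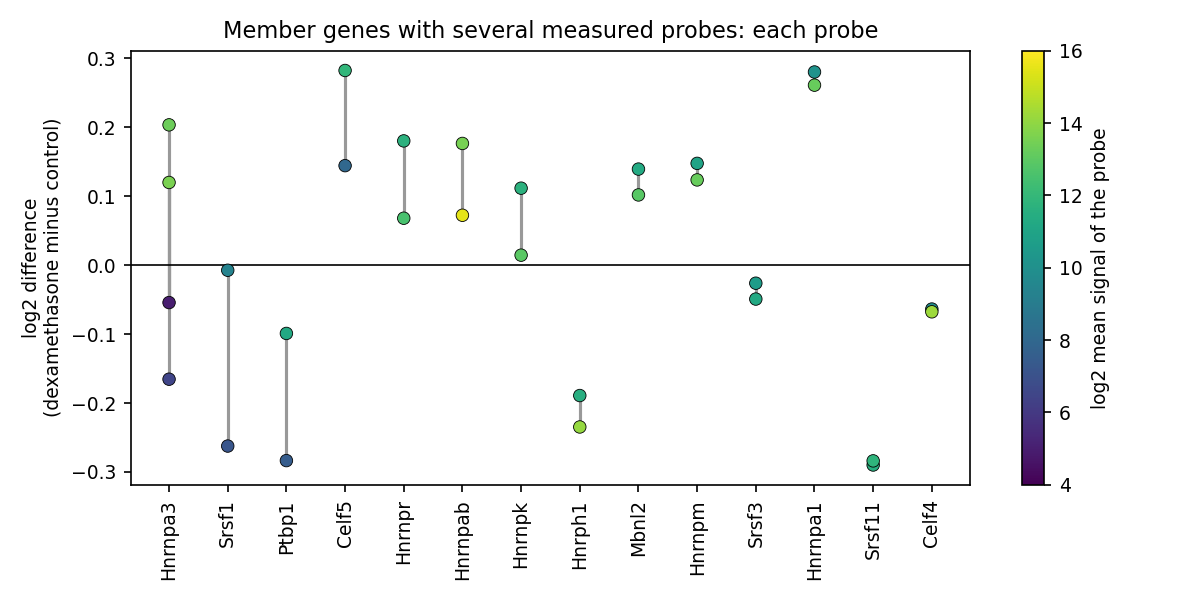
Log2 difference (dexamethasone minus control) of every measured probe of the 14 member genes with several probes, ordered by spread; lines join probes of a gene and colour gives the probe's mean log2 signal. In Hnrnpa3 alone the probes lie on both sides of 0, with the dim ones below.

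The polypyrimidine tract-binding proteins, repressors of neuronal exons, were slightly lower. Ptbp1, which neurons switch off as they form, read 2443 and 2404 (-0.10), and its dimmer second probe gave -0.28. Ptbp2, its neuronal counterpart, read 218 and 196 (-0.22). Of the Khdrbs genes, which encode the STAR-domain proteins that splice neurexins, Khdrbs1 (Sam68) read 6231 and 7030 (0.10) and Khdrbs2 read 657 and 665 (-0.06). Khdrbs3 read 3497 and 4473 (0.28). Of these 5 values, those of Ptbp2 and Khdrbs3 exceed the scanner's error of 0.20.

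Rbfox1 had the largest excess of any member. It encodes a neuronal splicing factor that binds UGCAUG beside exons of ion channels and synaptic genes. Its signal was 21570 in the control and 38320 after dexamethasone, a difference of 0.75, or 1.69-fold higher, and 0.67 to 0.77 under the alternatives. In the order of all 14176 genes this was the 700th highest difference, from 1 probe and 1 spot. Rbfox3, whose protein is the neuronal marker NeuN, was dim on its probe at 53.7 and 72.9 (0.37), and at 0.13 without background correction. Rbfox2, the broadly expressed paralog, appears on the array under its older name Rbm9 and so fell outside the naming rule. It read 313.8 and 206.7 (-0.68), the opposite direction to Rbfox1. Cortical and hippocampal markers were higher on the same array, at a median of 3.48. General neuron markers, a list that holds Rbfox3 itself, had a median of 0.10. The part of these markers in the Rbfox1 value was not tested.

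Both Nova genes, whose proteins bind YCAY clusters and set inhibitory synapse isoforms, were dim and slightly higher. Nova1 read 84.0 and 104 (0.23, but 0.02 with normexp background correction), and Nova2 read 82.0 and 96.3 (0.16). In the Mbnl family, whose proteins promote adult splicing patterns, Mbnl2, the main form in brain, read 7092 and 8022 (0.10, and 0.14 on a second probe). Mbnl1 read 77.2 and 87.9 (0.11), and turned to -0.0067 without background correction. Mbnl3 read 29.9 and 25.4 (-0.31), with a scanner error of 0.23, and its second probe was not well above background on either array. Among these dim genes, the differences of Nova1 and Mbnl1 came close to 0 under another treatment of the background. Those of Nova2 and Mbnl3 shrank to 0.07 and -0.15 without background correction.

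The Celf family, which binds GU-rich RNA and often opposes Mbnl proteins, had 4 genes higher and 2 lower, with the same 2 genes lower under all 10 alternatives (Celf2 is left out where dim genes were dropped). The broadly expressed Celf1 and Celf2 read 597 and 640 (0.02) and 505 and 643 (0.27). Among the brain-enriched genes, Celf5 read 3414 and 4377 (0.28, and 0.14 on a dimmer probe) and Celf3 read 4445 and 4991 (0.09). Celf4, which binds many synaptic transcripts in excitatory neurons, read 19100 and 19200 (-0.07, and -0.06 on a second probe). Celf6 was the lowest, at 993 and 794 (-0.40) on a junction probe.

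Elavl genes split by member. Elavl1 (HuR), the ubiquitous stabiliser of AU-rich transcripts, read 2467 and 3224 (0.31). Of its neuronal relatives, Elavl2 (HuB) read 6773 and 5319 (-0.42) and Elavl4 (HuD) read 9750 and 7536 (-0.45), while Elavl3 (HuC) read 626 and 664 (0.0086, with a sign that turned under some scaling). Elavl2 stayed between -0.48 and -0.41 and Elavl4 between -0.50 and -0.43 under the alternatives. Elavl2 and Elavl4 were thus lower by more than the scanner's error of 0.20, each on 1 spot per array. The general neuron markers were not uniform: Tubb3, neuronal tubulin, read 28860 and 23920 (-0.35). The other 6, which include the member Rbfox3, were between 0.02 (Stmn2) and 0.38 (Nefl). Thalamic markers were lower on the same array, at a median of -0.97, and their part in these values was not tested.

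**Figure D4:**
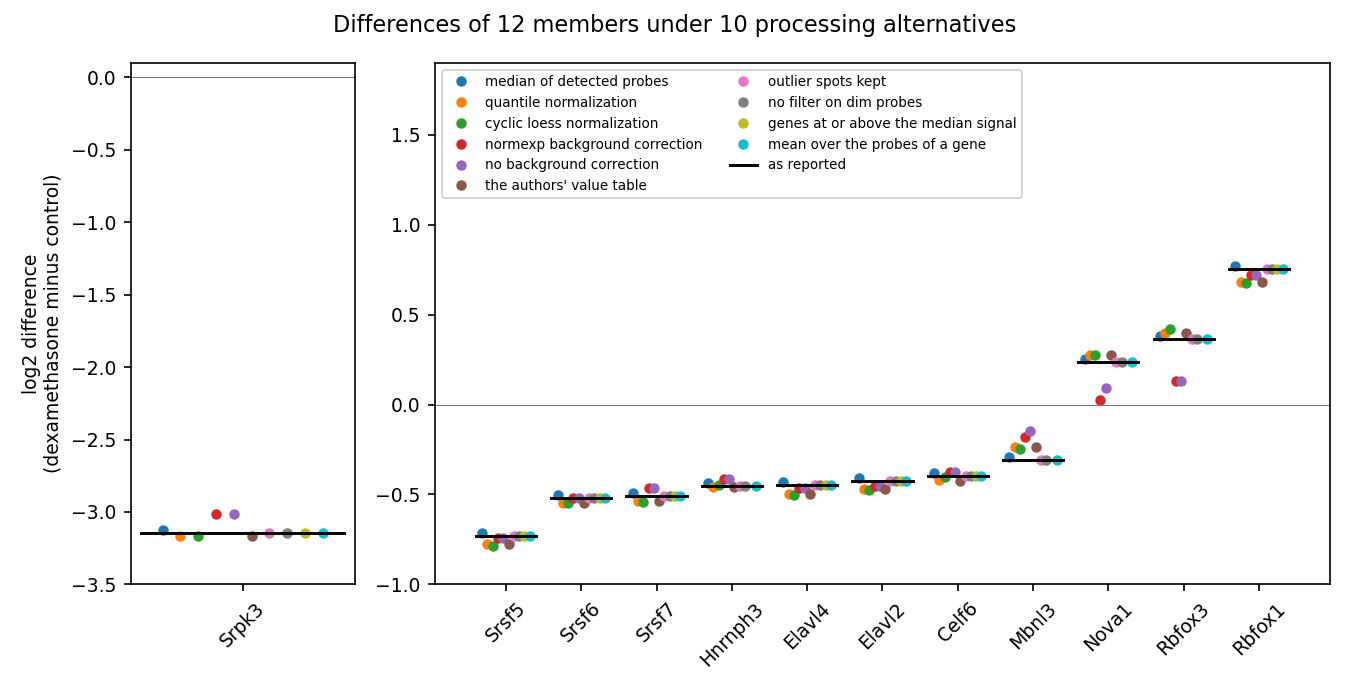
Log2 difference (dexamethasone minus control) of 12 members as reported (black bar) and under each of the 10 processing alternatives (coloured points); Srpk3 has its own panel and scale. Srpk3, the Srsf and Elavl genes and Rbfox1 stay close to the reported value, while dim Mbnl3, Nova1 and Rbfox3 move towards 0 with the background correction.

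Genes of the same pathway outside these families were followed in 3 lists. Over all genes, 3.37% were at least 2-fold higher, 2.38% at least 2-fold lower, and 48.7% below 0. Core spliceosome components showed no 2-fold difference: 28 of 34 were measured, 16 higher and 12 lower, with a median of 0.07. Their largest differences were -0.49 for Sf3b1 (11200 and 8409), the branch-point recognition subunit, and -0.48 for Snrnp70 (285 and 215), a U1 particle protein. Sf3b1 gave -0.16 on a second probe. Proteins of neuronal RNA transport and translation were likewise without a 2-fold difference, with 20 of 25 measured, 13 higher, 7 lower and a median of 0.12. The largest there were Rbms1 at 218 and 153 (-0.59) and Cpeb1, which controls polyadenylation at synapses, at 879 and 667 (-0.47, but 0.01 on a second probe).

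Other splicing regulators were lower in 29 of 41 measured genes, with a median of -0.19, where 48.7% of all genes were lower. At 2-fold, 2 of the 41 were lower and 1 was higher, against 2.38% and 3.37% of all genes. At 1.5-fold, 6 were lower and 2 higher, against 7.53% and 7.29% of all genes. Both 2-fold lower genes were Clk kinases, the nuclear kinases that phosphorylate SR proteins. Clk1 read 6496 and 2483 (-1.46, 2.76-fold lower) and Clk4 read 2399 and 1133 (-1.16, 2.23-fold lower). Both other kinases of this family lay on the same side, Clk2 at 1960 and 1435 (-0.53) and Clk3 at 2280 and 1783 (-0.43); they are named here to complete the family, after their values were seen. Each of the 4 Clk genes has 1 probe. The list holds other kinases of splicing factors that were not lower by this much: Dyrk1a read 217 and 287 (0.33) and Prpf4b 1577 and 1646 (-0.01), also named after their values were seen.

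The gene at least 2-fold higher was Rbm20, a splicing factor of titin, which read 23.6 and 85.9 (1.79), but 0.77 with normexp background correction and 0.80 without any, so its size depends on how the background of a dim probe is treated. Probes of some genes in these lists disagreed: Pcbp3 gave -0.26 and -2.18, Rbm24 0.51 and -1.31, and Snrpb 0.25 and -1.14 on their brighter and dimmer probes. These 3 were named after their values were seen.

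**Figure D5:**
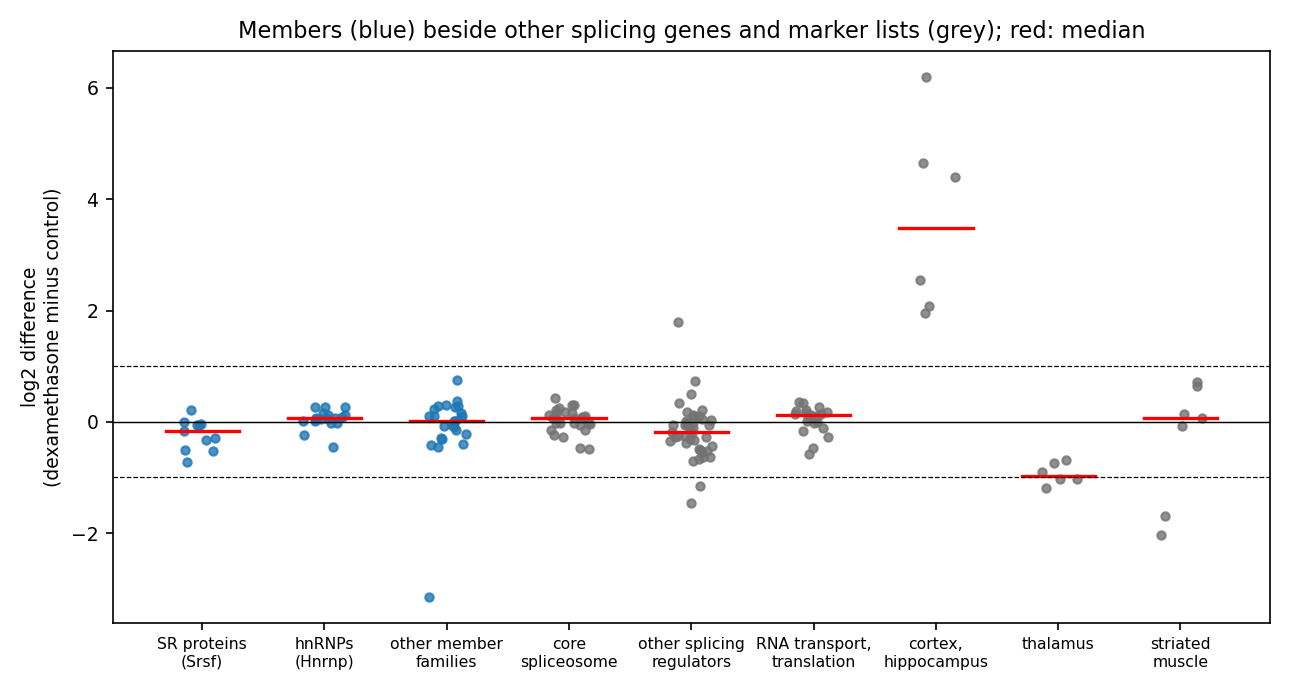
Log2 difference (dexamethasone minus control) of each measured gene, for the members (blue) and for other splicing genes and 3 marker lists (grey); the red bar is the median, dashed lines mark 2-fold, and horizontal scatter within a group carries no meaning. Of the splicing genes, only Srpk3, Clk1, Clk4 and Rbm20 lie past 2-fold, while cortical and hippocampal markers have a median of 3.48 and thalamic markers one of -0.97.

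Promoter sequence was available in RefSeq (assembly GRCr8) for 50 of the 54 members, and the 250 bases upstream of the start were searched on both strands for 3 motifs, alone or overlapping. The promoters of Srpk3, Srsf5 and Rbfox1, the members past 1.5-fold, are shown 5′ to 3′ in the gene's direction, with motif matches in capitals.
Srpk3 promoter, chrX:156661720-156661969, plus strand: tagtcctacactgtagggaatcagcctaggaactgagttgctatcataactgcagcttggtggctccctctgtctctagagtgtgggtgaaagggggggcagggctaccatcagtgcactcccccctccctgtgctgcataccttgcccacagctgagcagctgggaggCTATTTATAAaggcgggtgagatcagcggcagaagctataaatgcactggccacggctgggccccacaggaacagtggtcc
Srsf5 promoter, chr6:106336506-106336755, plus strand: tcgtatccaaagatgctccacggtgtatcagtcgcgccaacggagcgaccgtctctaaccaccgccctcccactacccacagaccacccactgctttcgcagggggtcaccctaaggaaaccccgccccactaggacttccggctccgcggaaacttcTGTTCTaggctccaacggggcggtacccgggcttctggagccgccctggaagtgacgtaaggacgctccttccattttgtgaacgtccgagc
Rbfox1 promoter, chr10:8999392-8999641, minus strand: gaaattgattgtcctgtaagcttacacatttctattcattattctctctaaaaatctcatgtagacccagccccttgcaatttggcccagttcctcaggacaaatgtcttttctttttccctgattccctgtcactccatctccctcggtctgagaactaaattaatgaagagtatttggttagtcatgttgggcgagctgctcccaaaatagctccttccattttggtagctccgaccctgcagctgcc
The capitals in Srpk3 mark a match to the MEF2 consensus, 81 to 72 bases upstream of the start, and those in Srsf5 mark AGAACA (read on the other strand), the repeat unit of the glucocorticoid response element, 92 to 87 bases upstream. A MEF2 match was present in 2 of 50 member promoters (Srpk3 and Srsf3) and in 2.96% of all 33469 promoters of this length. AGAACA was present in 5 members (10%: Hnrnph3, Hnrpd, Khdrbs1, Srsf3 and Srsf5) and in 17.5% of all, and the cyclic AMP response element TGACGTCA in 1 member (Celf6) and 1.59% of all. Rbfox1 held none of the 3 in this window.

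Of the 3 promoters shown, those of Srpk3 and Rbfox1 were poor in CpG dinucleotides, as were those of some other members. The median GC content was 62.2% with 21 CpG dinucleotides over the 50 member promoters, against 51.2% and 5 over all promoters. Srsf5 was like the other members, at 61.2% and 21 CpG. Srpk3 had 56.8% and 3 CpG, and Rbfox1 44.0% and 3 CpG. Counts were as low in Hnrnph3 (0), Hnrnpk (1), Srpk2 (1) and Mbnl3 (2). A motif match is a description of the sequence, and no binding was measured.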

How the data were processed

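The deposited scanner output gives linear intensity per spot for 1 array per group; per the file headers it was made with Feature Extraction 10.7.1.1 (the submitters' processing notes name 9.5.1.1), with probe positions on rn4. RNA was TRIzol-extracted, amplified and labelled with Cy3, per the labels' protocols. The authors' deposited value table, a second set of linear intensities with normalization not given in the sources used, served as an alternative.

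Outlier-marked spots (267 control, 249 dexamethasone) were left out; none was saturated. Log2 processed intensities were averaged per probe and the array's 75th percentile over non-control probes was subtracted. A gene took its brightest probe well above background on both arrays. Array names were updated through RefSeq (GRCr8, names only): 18006 probes by accession, 2654 by symbol and 559 by older symbol. The other 9148 probes kept the file's name and were left out of the gene counts and of the window around Srpk3. Genes are counted past 2-fold, a size rule and not a test. Scripts ran in R 4.3.3 with limma 3.58.1 (normexp with offset 50, quantile and cyclic loess alternatives) and Python 3.11.15, and the counting was tested on simulated data.

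Named genes were, by rule, all members of the small families, the 3 largest differences each way in Srsf and Hnrnp, and members of other lists past 2-fold or else their 2 largest; the remaining names complete a family or account for all members. Members, lists and alternatives were chosen with earlier results of these data known.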

Additional observations from a re-analysis of the deposited data

How the results depend on the processing

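With 1 array per group no array could be left out, and the spread between animals is unknown; the number of arrays limits every value. No paired analysis was possible because each group has 1 array and no comparison was tested. Differences below 0.20 are within the scanner's error, and those above it were not tested against 0 either.

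The counts of members 2-fold higher (0) and 2-fold lower (1) were the same under all 10 processing alternatives. Some of these had little room to change a count. Leaving out the filter on dim probes, or dropping genes below the median signal, moved no member's value. Averaging over probes cannot move a gene with 1 probe. With a 1.5-fold rule the counts were 1 and 2. The member median stayed between -0.029 (the authors' value table) and 0.028 (median of detected probes), so it lay on both sides of 0. Over all genes, 478 were 2-fold higher and 338 lower as reported, 283 and 130 with normexp, 279 and 133 without background correction, 870 and 732 without the filter on dim probes, and 178 and 68 among genes at or above the median signal.

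For the lists outside these families the alternatives were added after the values were seen. The core spliceosome median went from 0.07 to 0.0115 (quantile), 0.0178 (loess), 0.0113 (value table) and -0.0029 (mean over probes). For other splicing regulators it went from -0.19 to -0.23 (loess) and -0.14 (no background correction). For RNA transport and translation proteins it went from 0.12 to 0.0606 (quantile), 0.0155 (normexp), 0.0557 (no background correction) and 0.0602 (value table). The cause of these shifts was not tested.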

Other observations

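Among genes that belong to these families by current name but carry an older name on the array, Ptbp3 (listed as Rod1), a paralog of Ptbp1, read 121.9 in the control and 156.1 after dexamethasone (0.28), where Ptbp1 and Ptbp2 differed by -0.10 and -0.22. Some members also lie near each other in the genome: Hnrpd and Hnrpdl have probes 69584 bases apart on rn4 chromosome 14 and differed by 0.16 and -0.01.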
